A study of Mus musculus with 16 samples.

Results

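The tight junction and claudin genes described here are 10 genes, namely the claudins Cldn2, Cldn3, Cldn4, Cldn7, Cldn15 and Cldn23, the occludin gene Ocln, the scaffold genes Tjp1 and Cgn, and F11r. They were taken by gene symbol from the 46078 genes of the count table, and all 10 were present and passed the filter on low counts in every comparison. RNA of ileum mucosa was sequenced from 16 mice on a C57Bl/6 background, with 4 male Slfn3KO, 4 male WT, 4 female Slfn3KO and 4 female WT mice. Slfn3KO mice lack Slfn3 (Schlafen 3) through a germline knockout that is not restricted to the intestine, and WT mice were littermates with the gene intact. The labels give an age of 8 weeks for all mice, while the methods of the study give an older age. The labels call the tissue intestinal mucosa, and it is the methods that name the ileum. The labels name no treatment for these mice.

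Tight junctions seal the space between neighbouring epithelial cells near the lumen and set how freely ions, water and small solutes pass between the cells. Claudins are the membrane proteins that form the strands. Some of them, such as claudin-2 and claudin-15, form pores for cations and others, such as claudin-3, claudin-4 and claudin-7, tighten the barrier. In the small intestine claudin-2 is known as a protein of crypts and claudin-15 as the main sodium pore, while occludin and the junctional adhesion molecule encoded by F11r share the membrane with claudins, and ZO-1 (Tjp1) and cingulin (Cgn) join the strands to the actin cytoskeleton.

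The upstream sequences of Cldn2, Cldn15, Cldn4 and Cldn7 are shown because the first 3 varied most between mice and Cldn7 had the highest level. Each is the 250 bases before the annotated start in RefSeq on GRCm38.p6, written 5′ to 3′ on the strand of the gene, with motif matches in capitals. The windows lie at chrX:139800558-139800807 on the plus strand for Cldn2, chr5:136967619-136967868 on the plus strand for Cldn15, chr5:134946935-134947184 on the minus strand for Cldn4, and chr11:69964529-69964778 on the plus strand for the first of the starts listed for Cldn7. The Cldn15 window lies inside the deposited span of the gene, since RefSeq starts this gene downstream of the deposited start.
Cldn2: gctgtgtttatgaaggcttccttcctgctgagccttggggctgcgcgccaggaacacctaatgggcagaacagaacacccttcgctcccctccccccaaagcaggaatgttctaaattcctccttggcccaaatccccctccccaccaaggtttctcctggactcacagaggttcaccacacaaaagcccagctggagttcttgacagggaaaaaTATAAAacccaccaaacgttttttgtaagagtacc
Cldn15: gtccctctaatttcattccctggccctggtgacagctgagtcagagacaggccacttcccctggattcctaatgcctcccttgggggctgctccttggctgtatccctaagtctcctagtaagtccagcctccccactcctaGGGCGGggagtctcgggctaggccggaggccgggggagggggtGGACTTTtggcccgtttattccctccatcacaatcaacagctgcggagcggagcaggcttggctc
Cldn4: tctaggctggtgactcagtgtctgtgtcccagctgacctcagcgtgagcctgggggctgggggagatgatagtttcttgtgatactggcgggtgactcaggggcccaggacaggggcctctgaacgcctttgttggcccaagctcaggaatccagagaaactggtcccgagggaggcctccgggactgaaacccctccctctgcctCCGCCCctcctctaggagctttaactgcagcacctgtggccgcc
Cldn7: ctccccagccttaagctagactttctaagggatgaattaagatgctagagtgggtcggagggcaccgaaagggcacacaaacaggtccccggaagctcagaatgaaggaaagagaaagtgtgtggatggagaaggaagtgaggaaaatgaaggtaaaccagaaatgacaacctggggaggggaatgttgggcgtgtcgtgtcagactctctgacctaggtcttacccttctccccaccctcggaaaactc
The letters searched on both strands were the TATA motif TATAAA, the GC box GGGCGG, the GATA motif AGATAA and the CDX motif TTTATNG. The partial HNF4 motif AAAGTCC and the partial HNF1 motif GTTAAT, each only a part of a full site, were also searched. Cldn2 held a TATA motif, which 12.4% of 32851 RefSeq windows of this length hold. Cldn15 held a GC box and a partial HNF4 motif on the opposite strand, found in 32.7% and 3.58% of all windows. Cldn4 held a GC box, and the Cldn7 window shown held none of the 6 motifs. The window of the second start listed for Cldn7, which is not shown, held a GC box and had a GC content of 60.0%. The GATA motif, the CDX motif and the partial HNF1 motif were in none of the windows of the 9 members with an entry. They were in 9.99%, 9.81% and 6.43% of all windows. GC content was 52.0% for Cldn2, 60.8% for Cldn15, 62.0% for Cldn4 and 51.2% for Cldn7, against a median of 52.4% over all windows. A match is a run of letters and was not tested as a binding site.

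Between 20823279 and 30813117 reads per library were counted on genes. Levels below are CPM, the share of a library's counted reads that fell on a gene, after TMM scaling in edgeR. On this scale 3 counts were worth between 0.100 and 0.151 CPM, for counting error alone. The targeted gene, Slfn3, had between 0 and 2 counts in the Slfn3KO libraries and between 0 and 19 in the WT libraries, too few for a test. In 4 WT libraries, those numbered 3 and 4 of both labelled sexes, Xist and Y-linked transcripts went against the label. Male and female below are the deposited labels, and the main results are also given without these 4 libraries. The summed level of 10 B cell and follicle markers ranged from 2.56 to 144 CPM in Slfn3KO and from 5.19 to 974 CPM in WT libraries. The 4 libraries against their sex label held the highest sums, 974 and 200 CPM in male WT 3 and 4 and 477 and 627 CPM in female WT 3 and 4. The other WT libraries, at 6.91 and 5.19 CPM in males and 20.1 and 140 CPM in females, lay within the Slfn3KO range. The epithelial markers Epcam and Vil1 were at or above 2185 CPM in every library. The ileal bile acid binding protein gene Fabp6 was between 1798 and 15715 CPM, while lactase (Lct), a marker of more proximal small intestine, was between 0.414 and 1375 CPM.

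All 10 genes were expressed in every library, with a lowest count of 921 for Cldn23 and a highest of 44486 for Cldn7. Levels between genes were compared per kilobase of exon. Cldn7 had the highest mean level, 746 ± 135 CPM per kilobase (SD, n = 16), followed by Cldn3 at 329 ± 36.8, Cldn15 at 228 ± 73.4 and F11r at 145 ± 21.6. Cldn4 followed at 129.8 ± 50.1, Cldn2 at 72.0 ± 34.7 and Ocln at 45.5 ± 7.72 CPM per kilobase. The scaffold genes and Cldn23 were lowest, with 32.6 ± 4.56 for Cgn, 27.2 ± 4.02 for Cldn23 and 19.3 ± 2.62 for Tjp1. Cldn7 exceeded Cldn3, and Ocln exceeded Cgn, in 16 of 16 libraries. F11r exceeded Cldn4 in 10 of 16 libraries and Cldn2 exceeded Ocln in 12 of 16, so the order of these neighbours changed with the library. The plot of levels per length shows the order in both genotypes.

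**Figure D1:**
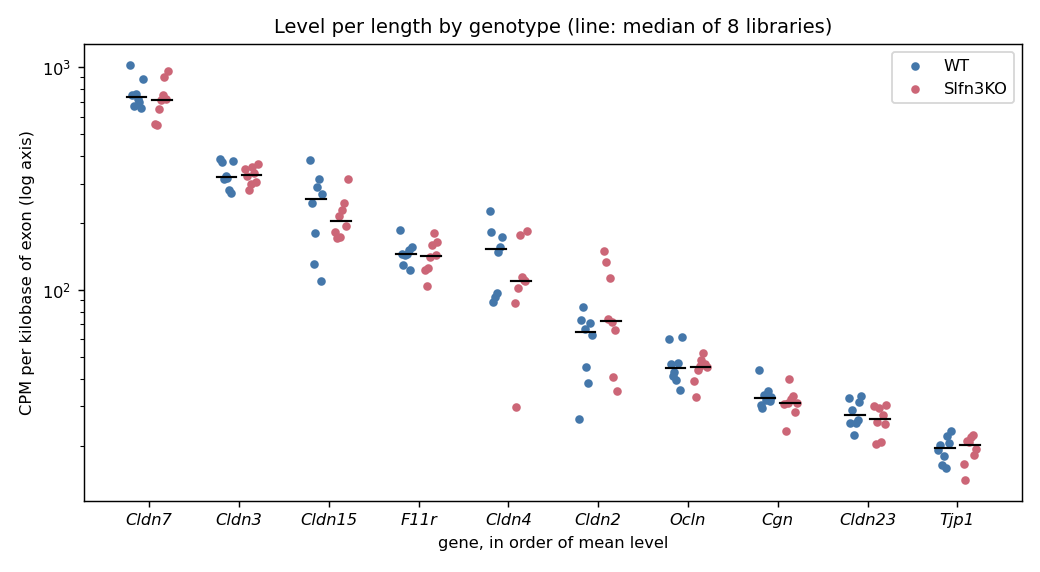
Level of each gene in CPM per kilobase of exon on a log axis, with 1 point per library and a line at the median of the 8 libraries of each genotype. Cldn7 lies highest at a mean of 746 CPM per kilobase and Tjp1 lowest at 19.3, and the points of the genotypes overlap for every gene.

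The genes differed in how much they varied between mice of the same sex and genotype. The within-group SD of log2 CPM was 0.69 for Cldn4, 0.55 for Cldn2 and 0.51 for Cldn15, and between 0.16 and 0.24 for the other 7 genes. Of the 1000 tested genes nearest in mean level, 96.8% varied less than Cldn4, 94.4% less than Cldn2 and 91.2% less than Cldn15. Over all 16 libraries the highest level was 7.59 times the lowest for Cldn4, 5.68 times for Cldn2 and 3.48 times for Cldn15, against 1.42 times for Cldn3.

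The pooled comparison asked whether loss of Slfn3 altered these genes, with sex as a covariate in edgeR's quasi-likelihood test and Benjamini-Hochberg adjustment over all genes. None of the 10 genes passed an adjusted p under 0.05 with a change of at least 1.5-fold, where 0% of the 14822 genes tested passed. No gene of the 10 reached an unadjusted p under 0.05 either, against 11.9% of all genes, and DESeq2 also gave 0 of the 10 at that unadjusted level. DESeq2 called 55 of 14803 genes, or 0.372%, at the adjusted threshold, none of them among the 10. The log2 fold change of Slfn3KO against WT was below 0 for 9 of the 10, with a median of -0.094, beside 50.7% of all genes below 0 and a median of -0.0037. The genotypes overlapped for all 10 genes, while 0.0270% of all genes had no overlap. When libraries were scaled by epithelial marker genes instead, the median of all genes moved to 0.14 and 1 of the 10 genes, Cldn4, stayed below 0.

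Among the pore-forming claudins, Cldn2 (chromosome X, 139800828 to 139811386, mm10) was 150.4, 128, 237 and 208 CPM in male WT libraries 1 to 4 and 238, 136, 220.3 and 118 CPM in male Slfn3KO libraries. It was 87.8, 244, 278 and 222 CPM in female WT and 498, 442, 246 and 378 CPM in female Slfn3KO libraries. The 3 highest of all 16 values were female Slfn3KO libraries, and the lowest was female WT 1. The pooled log2 fold change was 0.44 (SE 0.264, adjusted p = 0.529, edgeR), a mean of 284 ± 139.9 CPM in Slfn3KO against 194 ± 65.6 CPM in WT (SD, n = 8). Without the 4 WT libraries it was 0.77 (SE 0.320, unadjusted p = 0.0334, adjusted p = 0.761, edgeR).

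Cldn15 (chromosome 5, 136966616 to 136975858) was 614, 671, 233 and 573 CPM in male WT and 485, 521, 412 and 671 CPM in male Slfn3KO libraries. In females it was 811, 519, 278 and 382 CPM in WT and 386, 362, 456 and 369 CPM in Slfn3KO libraries. The WT values spread more widely, from 233 to 811 CPM, than the Slfn3KO values, from 362 to 671 CPM, and the lowest WT values were male WT 3 and female WT 3. The pooled log2 fold change was -0.17 (SE 0.226, adjusted p = 0.767, edgeR). Without the 4 WT libraries it was -0.54 (SE 0.163, unadjusted p = 0.00649, adjusted p = 0.761, edgeR). Cldn2 and Cldn15 were the 2 of 10 genes at an unadjusted p under 0.05 without these libraries, against 5.80% of 15093 genes, and 0 genes passed the adjusted threshold.

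Among the barrier claudins, Cldn4 (chromosome 5, 134945119 to 134946934, minus strand) was 175, 268, 283 and 314 CPM in male WT and 207, 201, 199 and 334 CPM in male Slfn3KO libraries. In females it was 410.4, 329, 161 and 169 CPM in WT and 159, 54.1, 185 and 322 CPM in Slfn3KO libraries. Female Slfn3KO 2 was far below all others, and it set the 7.59-fold range. The pooled log2 fold change was -0.36 (SE 0.296, adjusted p = 0.647, edgeR), and it was -0.20 without female Slfn3KO 2 and -0.21 without female WT 1.

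Cldn3 lies near Cldn4 on chromosome 5 (134986214 to 134987472). It was nearly level, with 354, 415 and 464 CPM as the lowest, median and highest of the Slfn3KO libraries and 344, 404 and 487 CPM of the WT libraries. Its pooled log2 fold change was -0.018 (SE 0.0927, adjusted p = 0.945, edgeR). Cldn7 (chromosome 11, 69964779 to 69967885) was 1069.7, 1389 and 1869 CPM as lowest, median and highest in Slfn3KO and 1274, 1427 and 1995 CPM in WT libraries, with a pooled log2 fold change of -0.10 (SE 0.132, adjusted p = 0.763, edgeR). Cldn23 (chromosome 8, 35824709 to 35826559, minus strand) was 37.6, 48.9 and 56.4 CPM in Slfn3KO and 41.2, 51.0 and 61.8 CPM in WT libraries. Its pooled log2 fold change was -0.11 (SE 0.108, adjusted p = 0.697, edgeR).

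The other membrane proteins and the scaffolds also lay within the spread between mice. Ocln (chromosome 13, 100496507 to 100552718, minus strand) was 139, 191 and 220.3 CPM as lowest, median and highest in Slfn3KO and 149.7, 189 and 259 CPM in WT libraries, with a pooled log2 fold change of -0.087 (SE 0.121). F11r (chromosome 1, 171437535 to 171464603) was 276, 379 and 482 CPM in Slfn3KO and 329, 386 and 496 CPM in WT libraries, with a log2 fold change of -0.064 (SE 0.108). Tjp1 (chromosome 7, 65296165 to 65371239, minus strand) was 103, 148 and 164 CPM in Slfn3KO and 117, 144 and 171 CPM in WT libraries, and its log2 fold change was -0.013 (SE 0.0978). Cgn (chromosome 3, 94760069 to 94786492, minus strand) was 141, 188 and 241 CPM in Slfn3KO and 178, 197 and 263 CPM in WT libraries, and its log2 fold change was -0.11 (SE 0.103). Adjusted p-values from edgeR for these 4 genes were 0.776 for Ocln, 0.817 for F11r, 0.963 for Tjp1 and 0.690 for Cgn.

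**Figure D2:**
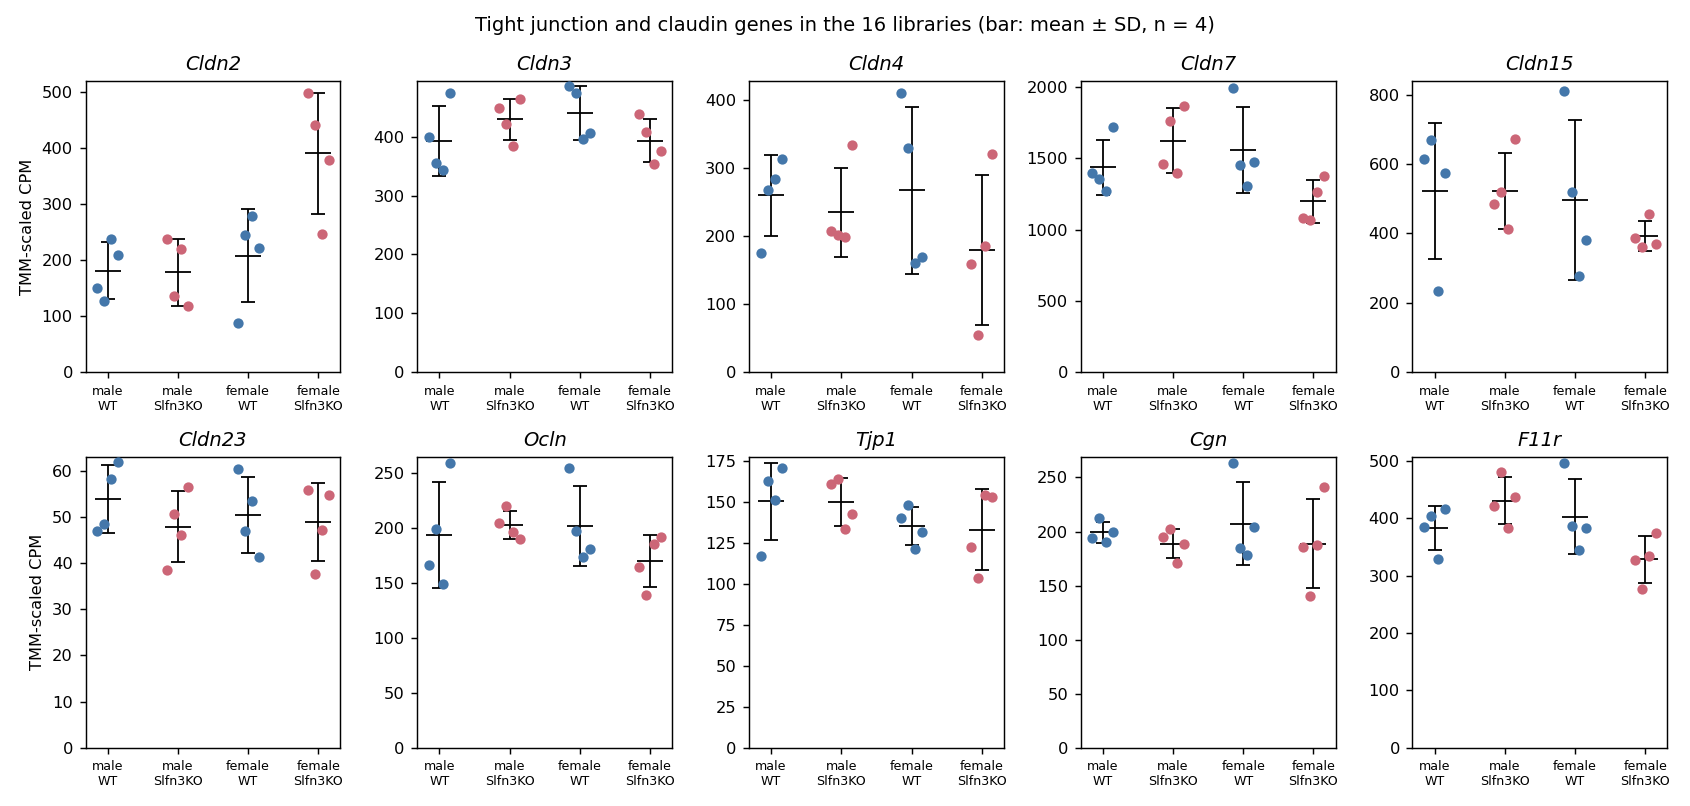
TMM-scaled CPM of each of the 10 genes in the 4 groups, with 1 point per library and the mean ± SD of 4 libraries as a bar. The Cldn2 values of female Slfn3KO libraries lie from 246 to 498 CPM, and those of the other groups from 87.8 to 278 CPM.

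**Figure D3:**
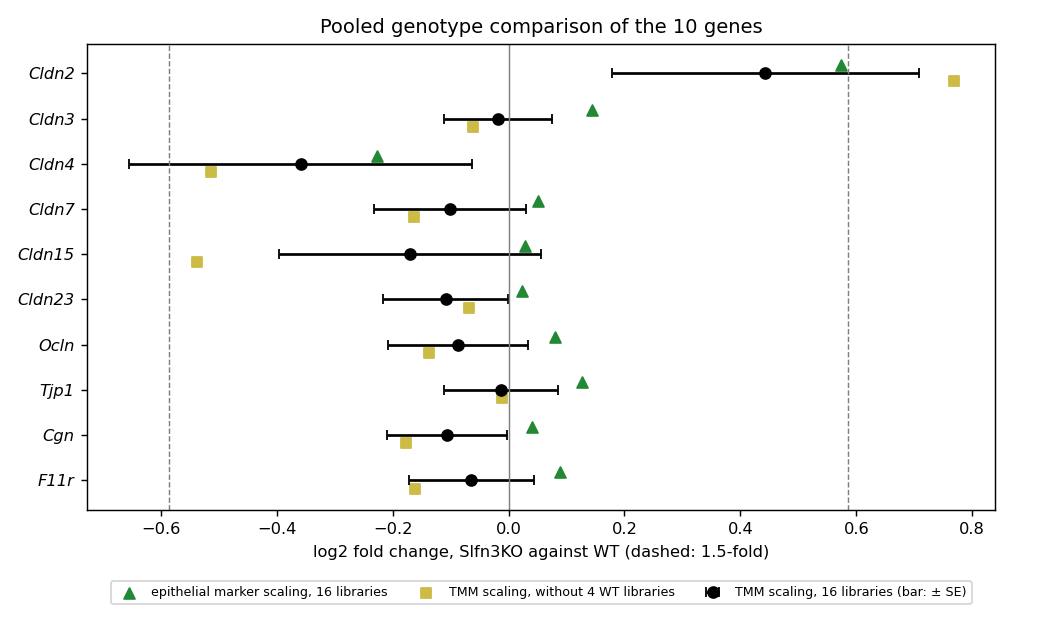
Pooled log2 fold change of Slfn3KO against WT for each gene with its SE (circles, 16 libraries), with epithelial marker scaling (triangles) and without the WT libraries numbered 3 and 4 (squares). Dashed lines mark 1.5-fold, and Cldn2 without the 4 libraries, at 0.77, is the only value beyond them.

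Each labelled sex was also compared alone. In females, Cldn2 had the smallest p of the 10 genes, with a mean of 391 ± 108 CPM in Slfn3KO and 208 ± 83.5 CPM in WT libraries (SD, n = 4). Its log2 fold change was 0.90 (SE 0.351, unadjusted p = 0.0309, adjusted p = 0.273, edgeR), and 0% of 14064 genes passed the adjusted threshold. Cldn2 was the 1 of 10 genes at an unadjusted p under 0.05, where 17.1% of all genes were, and DESeq2 gave 2 of the 10, Cldn2 and Cldn7, none of them at its adjusted threshold, which 3.75% of all genes passed. The groups overlapped, since female Slfn3KO 3 at 246 CPM lay below female WT 3 at 278 CPM, whereas 7.89% of all genes had no overlap. Without the WT libraries 3 and 4 the log2 fold change was 1.22 (SE 0.458, unadjusted p = 0.0326, adjusted p = 0.180, edgeR) with 2 WT mice left. In that setting Cldn2 and Cldn15 were 2 of the 10 genes at an unadjusted p under 0.05, where 24.0% of 14634 genes were. The overlap of Cldn2 rested on female WT 3, and with WT 3 and 4 left out the female WT values of 87.8 and 244 CPM lay below all 4 Slfn3KO values. The female groups of 7 of the 10 genes, Cldn2 among them, then did not overlap, beside 35.9% of all genes. For Cldn3, Cldn4, Cldn7, Cldn15, Ocln and F11r the direction was the reverse, with both WT values above all 4 Slfn3KO values.

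Marker genes had the following values in the same female comparison, with 0 of them past the adjusted threshold. Of all 14064 genes in edgeR's test, 17.1% had an unadjusted p under 0.05 and 51.1% a log2 fold change below 0. The proximal markers Lct, Gata4 and Fabp1 together were 4.43, 11.03, 159 and 11.9 CPM in female Slfn3KO libraries 1 to 4 and 1677, 434, 4.47 and 41.7 CPM in female WT libraries. All 3 had a log2 fold change below 0, with a median of -3.003, and 1 had an unadjusted p under 0.05. Of the 3 distal ileum markers Fabp6, Slc10a2 and Slc51b, 1 was above and 2 were below 0, with a median of -0.17 and 0 at that level. Of 7 epithelial markers 5 were below 0, with a median of -0.19 and 0 at that level. Of 7 M cell and follicle epithelium markers 5 were below 0, with a median of -0.70 and 2 at that level. All 6 crypt markers were above 0, with a median of 0.997 and 5 at an unadjusted p under 0.05, and all 5 villus tip markers were below 0, with a median of -1.41 and 1 at that level. The summed villus tip level ranged from 434 to 1924 CPM in female Slfn3KO and from 1292 to 6837 CPM in female WT libraries, and the summed crypt level from 444 to 611 and from 114 to 422 CPM. All 10 B cell and follicle markers were below 0, with a median of -3.59 and all at an unadjusted p under 0.05. Their summed level ranged from 8.46 to 57.4 CPM in female Slfn3KO libraries and was 20.1, 140, 477 and 627 CPM in female WT 1 to 4. The 2 highest sums were thus those of WT 3 and 4, whose sex transcripts went against the label. The marker lists were not tested without these libraries. Of the 8 stroma and vessel markers 7 were above 0, with a median of 1.03 and 1 at that level, and they summed to between 23.0 and 105 CPM in female Slfn3KO and between 11.2 and 41.8 CPM in female WT libraries. The part of these markers in the Cldn2 value was not tested.

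In males none of the 10 genes passed the adjusted threshold, with 0% of 14124 genes passing, and none reached an unadjusted p under 0.05, against 3.84% of genes in edgeR's test. None had groups without overlap, against 2.37% of genes. F11r had the smallest p, with 386, 404, 329 and 416 CPM in WT and 422, 482, 383 and 437 CPM in Slfn3KO libraries. The log2 fold change of F11r was 0.17 (SE 0.112, unadjusted p = 0.159, adjusted p = 0.925, edgeR). Of the 10 genes 4 were below 0 in males, where 50.4% of all genes were, and 9 in females, where 51.1% were. With epithelial marker scaling 3 of the 10 were below 0 in males and 3 in females, where the median of all genes moved to 0.033 and 0.25. Without male WT 3 and 4 the male log2 fold change of F11r was 0.13 (SE 0.140, unadjusted p = 0.372, adjusted p = 0.853, edgeR). That of Cldn2 moved from -0.020 (SE 0.286) to 0.37 (SE 0.318, adjusted p = 0.820, edgeR). In that setting 2 of the 10 were below 0 in males, with a median of 0.12, where the median of all genes was 0.023.

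Whether the genotypes differed by sex was tested with an interaction term, given as the female minus the male log2 fold change. F11r differed by -0.46 (SE 0.186, unadjusted p = 0.0254) and Cldn7 by -0.55 (SE 0.227, unadjusted p = 0.0279), both with an adjusted p of 0.441 from edgeR. These were 2 of the 10 genes at an unadjusted p under 0.05, where 11.1% of 14822 genes were, and 0% of all genes passed the adjusted threshold. Cldn2, the gene of smallest p in females, differed by 0.93 (SE 0.481, unadjusted p = 0.0713, adjusted p = 0.461, edgeR). Without the WT libraries 3 and 4 Cldn2 differed by 0.87 (SE 0.581, unadjusted p = 0.163, adjusted p = 0.359, edgeR). F11r was 496, 387, 345 and 384 CPM in female WT and 328, 276, 335 and 375 CPM in female Slfn3KO libraries. Cldn7 was 1400.2, 1356, 1274 and 1718 CPM in male WT and 1463, 1764, 1398 and 1869 CPM in male Slfn3KO libraries. In females Cldn7 was 1995, 1453, 1306 and 1471 CPM in WT and 1080.3, 1069.7, 1263 and 1379 CPM in Slfn3KO libraries. For both genes the Slfn3KO mean was above the WT mean in males and below it in females, with overlap in each sex. In females that overlap rested on WT 3. Without WT 3 and 4 the F11r and Cldn7 values of WT 1 and 2 lay above all 4 Slfn3KO values. In that setting 35.9% of all genes had female groups without overlap. Leaving out female WT 1 moved the unadjusted p to 0.0530 for F11r and 0.0561 for Cldn7, and leaving out male WT 3 to 0.0543 and 0.0549. Without the WT libraries 3 and 4 the differences were -0.55 for F11r and -0.76 for Cldn7, with adjusted p-values of 0.157 and 0.118 from edgeR, and 4 of the 10 genes were at an unadjusted p under 0.05 where 26.9% of 15093 genes were. In that setting 2.38% of all genes passed the adjusted threshold and none of the 10 did. With epithelial marker scaling the differences were -0.24 for F11r (unadjusted p = 0.101, edgeR) and -0.31 for Cldn7 (unadjusted p = 0.0254, edgeR). The same interaction had medians of -3.54 over 3 proximal markers, 1 of them at an unadjusted p under 0.05, and -1.28 over 5 villus tip markers, 2 of them at that level, against the 11.1% of all genes, and 0 passed the adjusted threshold. Their part in these values was not tested.

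The remaining genes of the junction were read from 5 lists of 73 genes, of which 55 were tested. None passed the threshold in the pooled comparison, and 2 of the 55 had an unadjusted p under 0.05, where 11.9% of all genes did, with 24 above 0 and 31 below and a median of -0.013. Of 18 other claudins only Cldn8 and Cldn12 passed the filter on low counts, and both were above 0. Of the other membrane proteins 5 were above and 4 below 0, of the other plaque proteins 8 and 7, of the polarity complex 5 and 5, and of the adherens junction and desmosome 4 and 15. The 3 genes of smallest p are given by rule. Cldn12 had the smallest, with 44.7, 51.2 and 56.6 CPM as lowest, median and highest in Slfn3KO and 42.3, 45.6 and 49.9 CPM in WT libraries (log2 fold change 0.16, SE 0.0600, unadjusted p = 0.0189, adjusted p = 0.335, edgeR). Amot, an angiomotin that binds polarity and Hippo pathway proteins, followed with a log2 fold change of 0.35 (SE 0.159, unadjusted p = 0.0427, adjusted p = 0.402, edgeR), which was 0.20 (unadjusted p = 0.296, edgeR) without the WT libraries 3 and 4. The adhesion molecule gene Nectin4 came next with 0.62 (unadjusted p = 0.0523, edgeR) at levels from 0.251 to 1.51 CPM. Cldn5, the claudin of vessel endothelium, had between 0 and 23 counts per library and was not tested. There were 4 of the other claudins at 0 counts in all 16 libraries.

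Levels of several of the 10 genes moved with marker lists over the 16 libraries. Scores were the mean log2 CPM of a marker list, and Pearson's r and Spearman's rho were each tested with 100000 permutations and adjusted over 80 relations of 10 genes with 8 lists. In bulk samples fewer cells of a type and less RNA per cell cannot be told apart. Cldn15 followed the proximal markers most closely, with r = 0.90 and rho = 0.93 (permutation p = 1e-05 for each, the smallest these permutations can give, adjusted p = 0.0004). It was r = 0.87 within Slfn3KO and 0.97 within WT libraries, 0.92 without the 2 libraries farthest from the median score and 0.87 without the 4 WT libraries. Cldn2 went the opposite way, with r = -0.84 and rho = -0.87 (permutation p = 5e-05 and 2e-05, adjusted p = 0.0005 and 0.000533). It was r = -0.97 within Slfn3KO and -0.76 within WT libraries, -0.83 without the 2 farthest libraries and -0.95 without the 4 WT libraries. F11r gave r = 0.80 and rho = 0.90 with the same score (adjusted permutation p = 0.00088 and 0.0004), and r = 0.80 without the 2 farthest libraries. The score differed by sex within Slfn3KO, from 5.34 to 7.72 in males and from 0.33 to 5.26 in females. Permutations shuffled all 16 libraries without regard to group. With the mean of each group of sex and genotype subtracted, r was 0.92 for Cldn15, -0.80 for Cldn2 and 0.71 for F11r.

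Fabp6, Slc10a2 and Slc51b, markers of distal ileum, gave the reverse, with r = 0.71 and rho = 0.61 for Cldn2 (adjusted permutation p = 0.00703 and 0.0384) and r = -0.78 and rho = -0.77 for Cldn15 (adjusted permutation p = 0.00181 and 0.00449). The Cldn2 value dropped to r = 0.50 without the 2 farthest libraries, and that of Cldn15 was r = -0.66. These 3 markers summed to at least 2224 CPM in every library, while the proximal markers ranged from 4.43 to 1204 CPM in Slfn3KO and from 4.47 to 1677 CPM in WT libraries, so that each genotype held libraries at both ends.

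**Figure D4:**
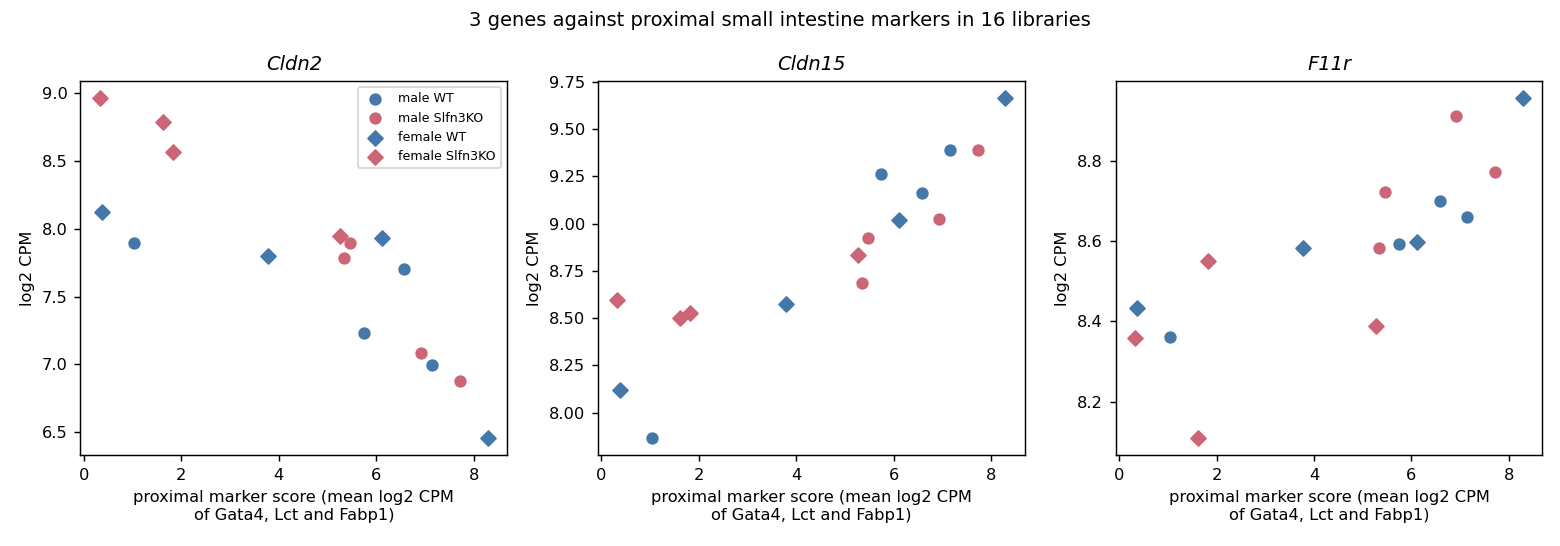
Log2 CPM of Cldn2, Cldn15 and F11r against the mean log2 CPM of the proximal markers Gata4, Lct and Fabp1, with 1 point per library in the 4 groups. Cldn2 declines with the score (r = -0.84) and Cldn15 and F11r increase with it (r = 0.90 and 0.80) in both genotypes.

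With the villus tip score, Cldn4 gave r = 0.88 and rho = 0.85 (adjusted permutation p = 0.0004 and 0.00096), or r = 0.67 without the 2 farthest libraries. F11r gave r = 0.87 with this score, Cldn7 r = 0.86, and Cldn2 r = -0.85. Counting genes with both adjusted p-values under 0.05, 7 of the 10 moved with the epithelial markers, 6 with villus tip, 5 with proximal, 5 with stroma and vessel, 2 with distal ileum, 2 with crypt, 1 with M cell and follicle epithelium and 0 with B cell and follicle markers. Cldn2 was the negative member in the epithelial, villus tip and proximal lists and the positive member in the stroma and vessel list. The 2 genes counted for the crypt list were Cldn7 and F11r, both negative. Cldn2 gave r = 0.60 and rho = 0.58 with the crypt score (adjusted permutation p = 0.0352 and 0.0539) and was not counted. Cldn3, Cldn23 and Tjp1 passed with no list. The scores share libraries, scaling and RNA make-up, and TMM factors ranged from 0.811 to 1.18, so the lists were not separated from each other.

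**Figure D5:**
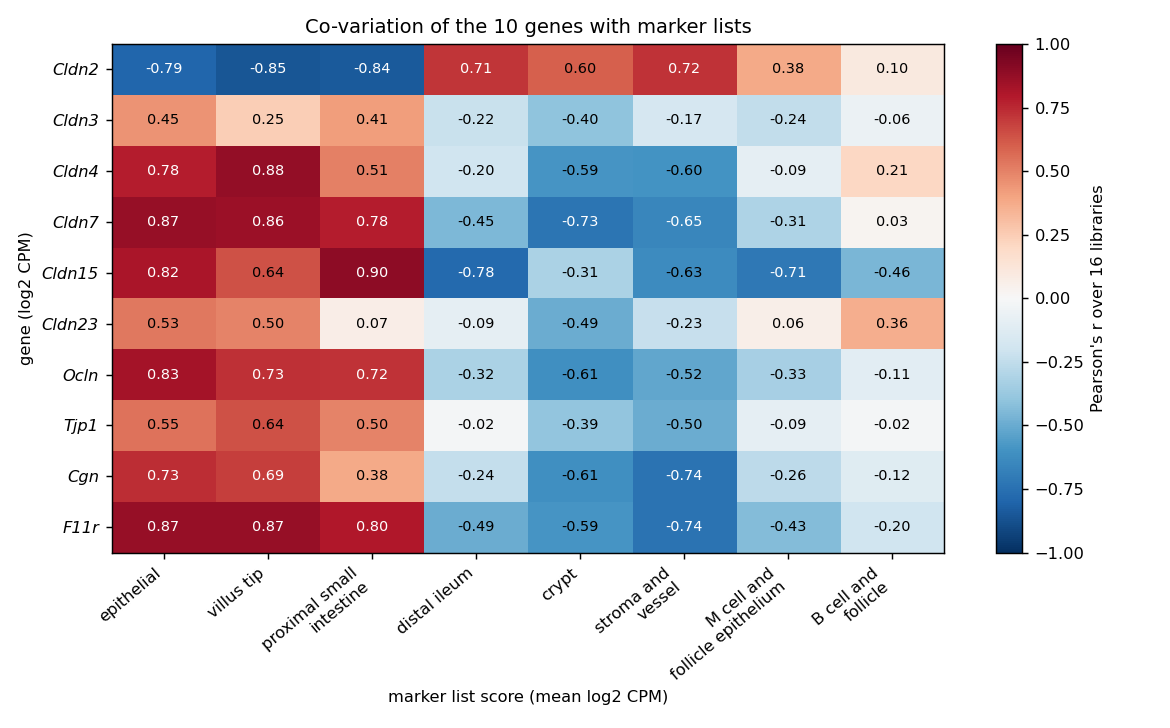
Pearson's r of each gene's log2 CPM with the score of 8 marker lists over 16 libraries, red for positive and blue for negative. The Cldn2 row has the opposite sign to the Cldn7, Cldn15 and F11r rows for the epithelial, villus tip, proximal, distal and stroma lists.

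Among themselves, 13 of the 45 gene pairs had both adjusted permutation p-values under 0.05, 10 of them positive and 3 negative, and all 3 negative pairs held Cldn2. Cldn7 and F11r were the closest pair with r = 0.92 and rho = 0.92 (adjusted permutation p = 0.00045 for each), and r = 0.91 without the 2 farthest libraries. Cldn2 gave r = -0.82 with Cldn7, -0.81 with F11r and -0.72 with Cldn15, and within Slfn3KO libraries -0.93, -0.82 and -0.91. Ocln and F11r gave r = 0.84, and Ocln and Cldn7 r = 0.80.

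The genes most like each of the 10 were named by the highest Pearson's r over the 16 libraries among 14821 other genes tested, with no test. For Cldn2 they were Paqr5 (r = 0.94, rho = 0.94) and the forkhead factor gene Foxa1 (r = 0.94, rho = 0.92), and for Cldn15 Atpaf2 (r = 0.96, rho = 0.97) and Tmem120a (r = 0.96, rho = 0.94). Cldn4 was most like 2010109I03Rik (r = 0.96) and Arhgef37 (r = 0.93), and Cldn7 most like Tmbim6 (r = 0.98) and Necap2 (r = 0.98). F11r was most like Snx25 (r = 0.96) and Slc3a2 (r = 0.95), a subunit of amino acid transporters. Ocln was most like Siae (r = 0.93) and Acvr2a (r = 0.93), Cgn most like Sel1l3 (r = 0.91) and Gnaq (r = 0.89), and Cldn3 most like Gemin7 (r = 0.91) and Usp21 (r = 0.89). The values were lower for Cldn23, with S100a11 (r = 0.86) and the growth factor gene Hbegf (r = 0.84), and for Tjp1, with Map3k2 (r = 0.87) and Slc10a5 (r = 0.86).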

How the data were processed

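RNA was isolated from ileum mucosa with a Qiagen RNeasy Lipid kit, and libraries were made with a TruSeq stranded protocol. The authors trimmed reads with cutadapt, mapped them to mm10 with STAR and deposited raw, unnormalized counts per gene beside exon lengths. Per the file headers, counts came from featureCounts in reverse-stranded mode. The submitters' processing notes give featureCounts 1.4.6 and DESeq2 1.22.2, and the study's methods name HTSeq as the counter. The deposited counts have 1 column per mouse, and 0 other columns were left out.

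Symbols came from GENCODE M21 (45143 of 46078 identifiers matched), and coordinates of 8 of the 10 genes equal those of that release. Upstream windows came from RefSeq and matched 9 of the 10 genes. Counts were tested with edgeR 4.0.16 (R 4.3.3) after its filter on low counts by group, TMM scaling and Benjamini-Hochberg adjustment, pooled with sex as a covariate, in each sex alone and as an interaction. Permutation tests used numpy 2.4.6. These edgeR fits were tested on simulated data, and the alternatives named next were not. DESeq2 1.42.0, RLE factors, other filters, epithelial marker scaling, no sex covariate, all groups in a joint fit, a replicate block, and leaving out libraries were alternatives. Permutation tests used numpy 2.4.6. Members and gene lists were chosen with earlier results of these data known. Genes named are the 10 members pooled, members at an unadjusted p under 0.05 (or the smallest p) elsewhere, the 3 other junction genes of smallest p, Cldn5, and the 2 genes most like each member. Cldn2 is also given for males and for the interaction.

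Replicate numbers come from the titles and name different mice. Deviations from the group means of same-numbered male mice correlated across genes with r = 0.229, 0.317, 0.518 and 0.138. The WT library of the same number was the closest match for male Slfn3KO 2 and 3, and was not for 1 and 4. Male WT 3 and 4 were among the libraries whose sex transcripts went against the label. Same-numbered females gave r = -0.362, 0.143, -0.337 and -0.113, and none was the closest match. The main tests did not pair libraries, and the replicate block paired same-numbered libraries in both labelled sexes. Whether the mice shared litters or days is not given in the sources used here, so p-values measure the spread between these samples.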

Additional observations from a re-analysis of the deposited data

Results flagged for a closer look

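Cldn4 stood apart in the library male Slfn3KO 4, with 334 CPM where the other male Slfn3KO libraries lay between 199 and 207 CPM. The gap to the nearest library was 0.939 of the range of the group, above the critical value for 4 samples. Of 40 combinations of a gene and a group this was the 1 that stood apart, and chance gives about 1 in 20. In this library the villus tip markers summed to 6266 CPM, the epithelial markers to 21760 CPM and the proximal markers to 1204 CPM. Each of these sums was the highest of the Slfn3KO libraries, and their part in the Cldn4 value was not tested.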

How the results depend on the processing

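No gene of the 10 passed the adjusted threshold in any comparison under any alternative run. DESeq2 moved the pooled count over all genes from 0 to 55. Without the WT libraries numbered 3 and 4, the pooled count of the 10 genes at an unadjusted p under 0.05 moved from 0 to 2. Scaling by epithelial markers turned 8 pooled log2 fold changes to above 0, at 0.041 for Cgn, 0.028 for Cldn15, 0.023 for Cldn23, 0.14 for Cldn3, 0.051 for Cldn7, 0.089 for F11r, 0.080 for Ocln and 0.13 for Tjp1, against a median of all genes of 0.14 under that scaling. Leaving out 1 library at a time gave ranges that crossed 0 for Cldn15 (-0.30 to 0.0023, above 0 without female WT 1), Cldn3 (-0.058 to 0.019), F11r (-0.12 to 0.0093, above 0 without female WT 1) and Tjp1 (-0.067 to 0.036). Pooled Cldn2 stayed between 0.29 and 0.55 with 1 library left out, and between 0.29 and 0.77 over all alternatives. Of 389 single-gene values under alternatives, 368 kept their direction and side of the threshold, and 21 changed sign. The cause of these changes was not tested.

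With the replicate block the pooled log2 fold change was 0.45 for Cldn2 and -0.07 for Cldn15, and the count of the 10 genes past the threshold was 0 in every comparison, so pairing changed no call. Female Cldn2 had an unadjusted p of 0.0768 with the block, and between 0.0524 and 0.0777 without each of female Slfn3KO 1, 2 and 4 and female WT 4, with log2 fold changes from 0.65 to 1.07 over all left-out libraries. The number of the 10 genes at an unadjusted p under 0.05 ranged from 0 to 3 in females and from 0 to 4 for the difference between the sexes. Each of the 10 genes had at least 921 counts in every library, while Nectin4 had as few as 5 and Cldn5 as few as 0.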
